A study of Homo sapiens with 18 samples.

Results

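The genes described here are 10 markers of the endoplasmic reticulum (ER) unfolded protein response, picked by name for their known roles and not by a cut on values: HSPA5, HSP90B1, CALR, PDIA4, SDF2L1, DNAJB9, DNAJC3, HERPUD1, ERN1 and XBP1. The choice was made with earlier results of these data known. All 10 were found by symbol among the 17017 genes of the deposited table. The cells were MDA-MB-231, an established human line of triple-negative breast carcinoma, in which the nucleolar methyltransferase fibrillarin (FBL), which places 2'-O-methyl groups on ribosomal RNA, was knocked down. All cells, controls included, received a lentiviral pLKO.1 vector carrying either a short hairpin against FBL or a scramble sequence, were selected with puromycin at 1 µg/ml for 96 h, and were given cycloheximide at 100 µg/ml for 5 min before lysis, so each group is a selected, transduced population. The groups are SC, read here as the scramble control, and the hairpins SH2 and SH3. The protocols call the hairpins KD1 and KD2, and the labels do not say which is which. Each group has 3 replicates of cytoplasmic input RNA (RNA below) and 3 of ribosome footprints, the RNA fragments that ribosomes shield from RNase I, for 18 libraries in all. The series was made to ask how loss of fibrillarin alters the RNAs present and their use by ribosomes. The question put here is where the genes of ER protein folding stand in it.

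The ER folds secreted and membrane proteins with lumenal chaperones and disulfide isomerases. When unfolded proteins build up, the chaperone BiP leaves the sensors IRE1, PERK and ATF6, which are then activated. IRE1 splices XBP1 mRNA into the form that codes for an active transcription factor, ATF6 is cut to release another, and PERK phosphorylates eIF2α, which lowers general translation and favours that of ATF4. The factors raise chaperones, folding enzymes and the machinery that exports misfolded proteins for degradation. The gene counts used here do not separate spliced from unspliced XBP1 mRNA and do not report on the phosphorylation or cleavage of any protein.

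The ER stress response element (ERSE) and ERSE-II are known promoter elements of the response, and the sequences that hold them are shown because several of these genes share them. ERSE was searched as CCAAT, 9 bases of any kind and CCACG, and ERSE-II as ATTGG, 1 base of any kind and CCACG, on both strands in RefSeq promoter windows of GRCh38.p14 that run from 250 bases before to 50 after each annotated start. The 10 genes matched 12 windows. ERSE was found for 4 of the 10 (HSPA5, HSP90B1, CALR and XBP1) and ERSE-II for another 2 (SDF2L1 and HERPUD1). By gene symbol, 25 and 19 of all 27305 held them, these genes included. By window, 27 and 19 of all 35116 held them, which is 0.0769% and 0.0541% of windows. The elements and the 10 genes were both picked from what is known of the response, so these counts are not a test. HSP90B1 held 2 copies of ERSE, at -194 to -176 and, on the opposite strand, at -89 to -71. ERSE lay at -66 to -48 in HSPA5, at -225 to -207 on the opposite strand in CALR, and at -52 to -34 in XBP1, in the first of its windows. ERSE-II lay at -117 to -107 in HERPUD1 and at -188 to -178 on the opposite strand in SDF2L1. The letters of these motifs were not found in the windows of PDIA4, DNAJB9, DNAJC3 and ERN1, and a further element searched, UPRE (TGACGTGG, in 0.729% of windows), was found in 0 of the 10. Capitals mark the element, and an element on the opposite strand reads there as its reverse complement. Positions count from the start of the gene, and coordinates are those of GRCh38.p14.
HSPA5 (chr9:125241344-125241593, minus strand, -250 to -1): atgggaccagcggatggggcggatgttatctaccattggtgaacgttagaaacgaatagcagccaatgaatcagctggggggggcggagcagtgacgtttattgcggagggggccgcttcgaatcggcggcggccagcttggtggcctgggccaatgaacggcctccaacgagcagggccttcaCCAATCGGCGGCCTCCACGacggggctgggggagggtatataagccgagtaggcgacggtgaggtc
HSP90B1 (chr12:103930196-103930359, plus strand, -214 to -51): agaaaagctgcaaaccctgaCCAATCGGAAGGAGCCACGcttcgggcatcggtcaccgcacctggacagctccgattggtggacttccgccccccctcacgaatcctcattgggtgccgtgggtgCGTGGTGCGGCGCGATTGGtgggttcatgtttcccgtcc
CALR (chr19:12938364-12938422, plus strand, -245 to -187): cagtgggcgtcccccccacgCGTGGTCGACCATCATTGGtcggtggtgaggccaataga
XBP1 (chr22:28800583-28800641, minus strand, -72 to -14): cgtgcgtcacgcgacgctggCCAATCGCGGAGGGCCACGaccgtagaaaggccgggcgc
HERPUD1 (chr16:56932005-56932055, plus strand, -137 to -87): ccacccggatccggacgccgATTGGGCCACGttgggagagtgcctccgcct
SDF2L1 (chr22:21642094-21642144, plus strand, -208 to -158): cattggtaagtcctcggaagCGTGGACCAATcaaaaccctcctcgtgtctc
A match is a description of the letters and says nothing of binding.

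FBL RNA stood at 388 ± 36.4 CPM (read counts scaled to the library total) in the controls, 5.67 ± 5.09 with SH2 and 3.49 ± 0.612 with SH3 (SD, 3 libraries each), and its footprints at 282 ± 13.9, 13.2 ± 14.6 and 5.88 ± 2.01 CPM, so the labels match the targeted gene. RNA libraries held 23469830 to 27629488 counts and footprint libraries 1662705 to 6098648, with the lowest mean footprint depth in SH3. The markers chosen for this mesenchymal-like line (VIM, AXL, CD44, CAV1 and MSN) were abundant. Of 6 luminal or epithelial markers, ESR1 and PGR had at most 2 counts in any RNA library, CDH1 at most 11 and FOXA1 at most 29, whereas GATA3 (8.03 CPM in SC) and ERBB3 (14.2 CPM in SC) were present. Mitochondrially encoded mRNAs took 6.31% to 10.7% of the RNA counts in SC, 2.52% to 3.30% in SH2 and 3.63% to 5.08% in SH3, and all 13 were called lower in both hairpins. CPM values are shares of a library after TMM scaling, so this difference and the depth move with the treatment, and their part in the results below was not tested.

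Against SC, 7 of the 10 genes were called higher in RNA with SH2 and 6 with SH3, and 0 were called lower with either. A call is an adjusted p-value under 0.05 in edgeR's quasi-likelihood test over 12710 genes. These counts stand against a broad change of the transcriptome: 61.4% of all genes tested were called with SH2 (31.1% higher, 30.4% lower) and 53.0% with SH3 (27.8% higher, 25.2% lower). The median log2 difference of the 10 genes was 0.48 with SH2 and 0.43 with SH3, where the median over all genes was 0.012 and 0.034. Regardless of sign, the median size of the log2 difference over all genes was 0.467 with SH2 and 0.385 with SH3. The signed medians thus show a direction and not an unusual size of change. The same 6 genes (HSPA5, HSP90B1, CALR, PDIA4, HERPUD1 and ERN1) were called higher with both hairpins, and XBP1 was called with SH2. Both hairpins were set against the same SC libraries, so their values are not independent of each other. In bulk RNA, a change in a share of cells and a change in RNA per cell cannot be told apart. The labels do not say that replicates are separate cultures, so p-values measure only the spread between these libraries.

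**Figure D1:**
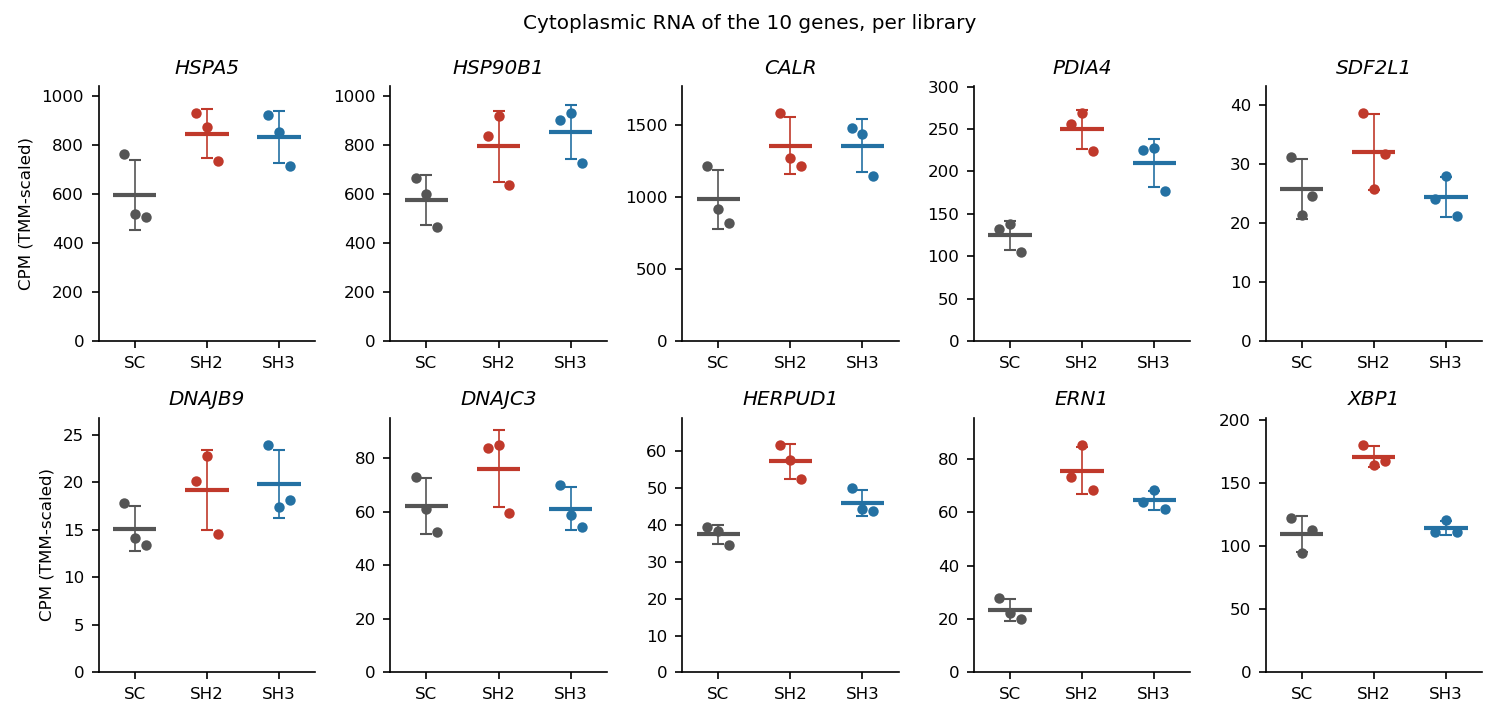
RNA level of each gene in CPM (vertical axis, linear, starting at 0, own scale per panel) by treatment. Points are the 3 libraries of each treatment and the lines the group mean with its SD. ERN1 lies at 19.9 to 27.9 CPM in SC and at 61.3 to 85.4 CPM in the hairpin libraries, and XBP1 is higher in SH2 alone.

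HSPA5 encodes BiP, the main Hsp70 chaperone of the ER lumen and the regulator of the sensors. HSPA5 RNA stood at 763, 520.1 and 508 CPM in the SC libraries, 931, 873 and 736 with SH2 and 925, 855 and 717 with SH3. SC replicate 1 overlapped both hairpin groups, and the other SC libraries lay below every hairpin library. HSPA5 was called higher with SH2 (1.42-fold, log2 0.50 ± 0.15 SE, edgeR adjusted p 0.0110) and with SH3 (1.39-fold, log2 0.48 ± 0.15 SE, edgeR adjusted p 0.0170). With SH2 the call was lost without SC replicate 3 (log2 0.40, edgeR adjusted p 0.0563). With SH3 it was lost without SC replicate 2 or 3 or without SH3 replicate 1 or 2 in turn (log2 0.36 to 0.43, edgeR adjusted p 0.0651 to 0.0987). HSPA5 footprints were at 1055, 1832 and 1260.1 CPM in the SC libraries, 1895, 2012 and 1424 with SH2 and 2149.6, 1668 and 1419 with SH3. All groups overlapped and neither hairpin was called (1.29-fold, log2 0.36 ± 0.20 SE, edgeR adjusted p 0.148, and 1.26-fold, log2 0.34 ± 0.20 SE, edgeR adjusted p 0.200 for SH3). SC replicate 2 was the highest of the SC footprint libraries, and without it HSPA5 footprints were called higher with SH2 (log2 0.62, edgeR adjusted p 0.00932) and with SH3 (log2 0.60, edgeR adjusted p 0.0155). The SH2 footprint difference was also called when genes with low counts were kept (edgeR adjusted p 0.0411).

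HSP90B1 encodes GRP94, the Hsp90 of the ER lumen. HSP90B1 RNA stood at 664, 601 and 464 CPM in the SC libraries, 836, 918 and 636 with SH2 and 901, 930.2 and 726 with SH3. SH2 replicate 3 fell within the SC range, and all SH3 libraries lay above it. HSP90B1 was called higher with SH2 (1.38-fold, log2 0.47 ± 0.15 SE, edgeR adjusted p 0.0170) and with SH3 (1.48-fold, log2 0.56 ± 0.15 SE, edgeR adjusted p 0.00692). The SH2 call was lost without SC replicate 3 (log2 0.33, edgeR adjusted p 0.0877) or SH2 replicate 2 (log2 0.34, edgeR adjusted p 0.0953), whereas the SH3 call stood under each alternative run. HSP90B1 footprints were at 2206, 2745 and 2092 CPM in the SC libraries, 2567, 2803 and 1899.8 with SH2 and 2808, 2477 and 1969 with SH3. The groups overlapped throughout, and the log2 differences were 0.046 ± 0.17 SE with SH2 and 0.043 ± 0.17 SE with SH3, not called in edgeR (adjusted p 0.846 and 0.864).

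CALR encodes calreticulin, the lectin chaperone that holds newly made glycoproteins. CALR RNA stood at 1214, 917 and 821 CPM in the SC libraries, 1580.3, 1268 and 1218 with SH2 and 1481, 1439 and 1146 with SH3. SH2 libraries all lay above SC, if only just for replicate 3, and SH3 replicate 3 fell below the highest SC library. CALR was called higher with SH2 (1.38-fold, log2 0.46 ± 0.15 SE, edgeR adjusted p 0.0160) and SH3 (1.38-fold, log2 0.46 ± 0.15 SE, edgeR adjusted p 0.0188). The SH2 call was lost without SC replicate 2, SC replicate 3 or SH2 replicate 1 (log2 0.34 to 0.41, edgeR adjusted p 0.0505 to 0.0805), and the SH3 call without SC replicate 2, SC replicate 3, SH3 replicate 1 or SH3 replicate 2 (log2 0.35 to 0.41, edgeR adjusted p 0.0566 to 0.102). CALR footprints were at 3044, 3905 and 3513 CPM in the SC libraries, 2764, 3542 and 2484 with SH2 and 4732, 4584 and 3677 with SH3. Neither hairpin differed from SC beyond the threshold (0.840-fold, log2 -0.25 ± 0.15 SE, edgeR adjusted p 0.195 for SH2, 1.24-fold, log2 0.31 ± 0.15 SE, edgeR adjusted p 0.122 for SH3), but every SH2 library lay below every SH3 library.

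PDIA4 encodes ERp72, a protein disulfide isomerase of the ER lumen. PDIA4 RNA stood at 132, 138 and 105 CPM in the SC libraries, 256, 268 and 224 with SH2 and 225, 227 and 177 with SH3. The lowest hairpin library lay above the highest SC library. PDIA4 rose with SH2 (2.00-fold, log2 1.00 ± 0.13 SE, edgeR adjusted p 1.30e-05) and with SH3 (1.68-fold, log2 0.75 ± 0.13 SE, edgeR adjusted p 0.000225), and both calls stood under each alternative run. PDIA4 footprints were at 166, 174 and 175 CPM in the SC libraries, 294, 293 and 222 with SH2 and 249, 249 and 195 with SH3, with both hairpin groups above SC. They rose with SH2 (1.57-fold, log2 0.65 ± 0.15 SE, edgeR adjusted p 0.00209) and with SH3 (1.34-fold, log2 0.42 ± 0.15 SE, edgeR adjusted p 0.0341). The SH3 footprint call was lost without SC replicate 1, SC replicate 3, SH3 replicate 1 or SH3 replicate 2 (log2 0.37 to 0.45, edgeR adjusted p 0.0525 to 0.127).

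SDF2L1, DNAJB9 and DNAJC3 encode cochaperones of BiP. SDF2L1 is a partner of BiP and its J-proteins. SDF2L1 RNA stood at 31.2, 21.3 and 24.5 CPM in the SC libraries, 38.6, 25.7 and 31.6 with SH2 and 24.00, 27.9 and 21.2 with SH3, with overlap between all groups and no call (1.24-fold, log2 0.32 ± 0.17 SE, edgeR adjusted p 0.115 for SH2, 0.948-fold, log2 -0.077 ± 0.17 SE, edgeR adjusted p 0.721 for SH3). With SH2 it was called higher without SC replicate 1 (log2 0.46, edgeR adjusted p 0.0265) or SH2 replicate 2 (log2 0.44, edgeR adjusted p 0.0384). SDF2L1 footprints were at 17.05, 22.3 and 17.9 CPM in the SC libraries, 17.8, 17.9 and 16.8 with SH2 and 10.5, 9.59 and 9.11 with SH3. SH3 libraries all lay below SC and SH2. SDF2L1 footprints fell with SH3 (0.516-fold, log2 -0.96 ± 0.21 SE, edgeR adjusted p 0.00263), the one call of a lower value among the 10 genes against SC, and it stood under each alternative run. It rests on 18 to 28 counts in each SH3 library. With SH2 they were not called (0.934-fold, log2 -0.10 ± 0.19 SE, edgeR adjusted p 0.760).

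DNAJB9 encodes ERdj4, a J-protein of the ER lumen that acts on IRE1 and in ER-associated degradation. DNAJB9 RNA stood at 17.8, 14.2 and 13.4 CPM in the SC libraries, 20.2, 22.8 and 14.5 with SH2 and 23.96, 17.5 and 18.1 with SH3, with overlapping groups, and was not called (1.27-fold, log2 0.34 ± 0.18 SE, edgeR adjusted p 0.109 for SH2, 1.31-fold, log2 0.39 ± 0.18 SE, edgeR adjusted p 0.0777 for SH3). With the replicate number as a block, which pairs SC and SH2, the SH2 difference was called (log2 0.34, edgeR adjusted p 0.0377). Leaving out SC replicate 1 or SH2 replicate 3 also gave that call (log2 0.46 and 0.48, edgeR adjusted p 0.0464 and 0.0303), and leaving out SC replicate 1 gave a call with SH3 (log2 0.51, edgeR adjusted p 0.0336), as did testing with no filter on low counts (edgeR adjusted p 0.0463). DNAJB9 footprints were at 19.97, 42.1 and 26.3 CPM in the SC libraries, 58.9, 61.1 and 37.2 with SH2 and 76.1, 53.8 and 41.4 with SH3. SC replicate 2 overlapped the lowest library of each hairpin. DNAJB9 footprints rose with SH2 (1.85-fold, log2 0.89 ± 0.27 SE, edgeR adjusted p 0.0139) and SH3 (1.98-fold, log2 0.99 ± 0.27 SE, edgeR adjusted p 0.0106). The SH2 call was lost without SC replicate 3 or SH2 replicate 2 (log2 0.83 and 0.76, edgeR adjusted p 0.0515 and 0.0625), and the SH3 call without SH3 replicate 1 (log2 0.76, edgeR adjusted p 0.0552).

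DNAJC3 encodes p58IPK, a J-protein and a known inhibitor of PERK. DNAJC3 RNA stood at 73.1, 61.03 and 52.4 CPM in the SC libraries, 83.8, 84.96 and 59.5 with SH2 and 70.01, 58.7 and 54.4 with SH3, with all groups overlapping, and was not called with SH2 (1.22-fold, log2 0.29 ± 0.15 SE, edgeR adjusted p 0.111) or SH3 (0.982-fold, log2 -0.026 ± 0.15 SE, edgeR adjusted p 0.898). The SH2 difference was called with the replicate block (log2 0.29, edgeR adjusted p 0.0152) and without SC replicate 1 or SH2 replicate 3 (log2 0.40 and 0.42, edgeR adjusted p 0.0353 and 0.0281). DNAJC3 footprints were at 69.8, 95.6 and 61.2 CPM in the SC libraries, 128, 113 and 96.8 with SH2 and 85.5, 74.3 and 67.3 with SH3. Every SH2 library lay above SC and SH3. They rose with SH2 (1.505-fold, log2 0.59 ± 0.17 SE, edgeR adjusted p 0.0113), a call lost without SC replicate 3 (log2 0.46, edgeR adjusted p 0.0676), and were not called with SH3 (1.01-fold, log2 0.012 ± 0.18 SE, edgeR adjusted p 0.962).

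HERPUD1 encodes a membrane protein that organises the HRD1 ubiquitin ligase of ER-associated degradation. HERPUD1 RNA stood at 39.4, 38.4 and 34.5 CPM in the SC libraries, 61.7, 57.5 and 52.3 with SH2 and 49.97, 44.2 and 43.7 with SH3. No hairpin library fell within the SC range, and SH2 lay above SH3. HERPUD1 rose with SH2 (1.53-fold, log2 0.61 ± 0.10 SE, edgeR adjusted p 0.000156) under each alternative run. It was also called higher with SH3 (1.23-fold, log2 0.30 ± 0.10 SE, edgeR adjusted p 0.0260), a call lost without SC replicate 3 or any SH3 replicate in turn (log2 0.19 to 0.30, edgeR adjusted p 0.0605 to 0.186). HERPUD1 footprints were at 29.7, 26.1 and 22.5 CPM in the SC libraries, 63.3, 67.1 and 58.6 with SH2 and 45.7, 39.4 and 43.8 with SH3, with the same order of the groups and no overlap. They rose with SH2 (2.41-fold, log2 1.27 ± 0.16 SE, edgeR adjusted p 1.68e-05) and SH3 (1.64-fold, log2 0.71 ± 0.17 SE, edgeR adjusted p 0.00362), and both calls stood under each alternative run.

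ERN1 encodes IRE1α, the sensor kinase and RNase that splices XBP1 mRNA. ERN1 RNA stood at 27.9, 22.4 and 19.9 CPM in the SC libraries, 73.3, 85.4 and 68.2 with SH2 and 63.97, 68.3 and 61.3 with SH3. The hairpin libraries lay far above SC, and SH2 overlapped SH3. ERN1 had the largest RNA change of the 10 genes with either hairpin (3.23-fold, log2 1.69 ± 0.13 SE, edgeR adjusted p 1.79e-07 for SH2, 2.76-fold, log2 1.46 ± 0.13 SE, edgeR adjusted p 1.33e-06 for SH3). ERN1 footprints were at 12.5, 21.1 and 14.02 CPM in the SC libraries, 58.9, 60.8 and 52.8 with SH2 and 50.9, 56.5 and 47.3 with SH3, again with no overlap between hairpins and SC. They rose with SH2 (3.77-fold, log2 1.92 ± 0.19 SE, edgeR adjusted p 2.30e-06) and SH3 (3.39-fold, log2 1.76 ± 0.20 SE, edgeR adjusted p 1.15e-05). All 4 ERN1 calls stood under each alternative run.

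XBP1 encodes the transcription factor whose mRNA IRE1α splices. XBP1 RNA stood at 122, 94.2 and 113 CPM in the SC libraries, 180.0, 164 and 167 with SH2 and 111, 120.2 and 111 with SH3. SH2 stood apart from SC and SH3, which overlapped. XBP1 rose with SH2 (1.55-fold, log2 0.64 ± 0.10 SE, edgeR adjusted p 0.000108) and was not called with SH3 (1.04-fold, log2 0.057 ± 0.10 SE, edgeR adjusted p 0.661). XBP1 footprints were at 60.2, 77.9 and 62.8 CPM in the SC libraries, 114, 96.04 and 97.4 with SH2 and 69.7, 48.96 and 66.96 with SH3, with every SH2 library above SC and SH3. They rose with SH2 (1.54-fold, log2 0.62 ± 0.16 SE, edgeR adjusted p 0.00531) and were not called with SH3 (0.925-fold, log2 -0.11 ± 0.17 SE, edgeR adjusted p 0.634). The SH2 calls stood under each alternative run.

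**Figure D2:**
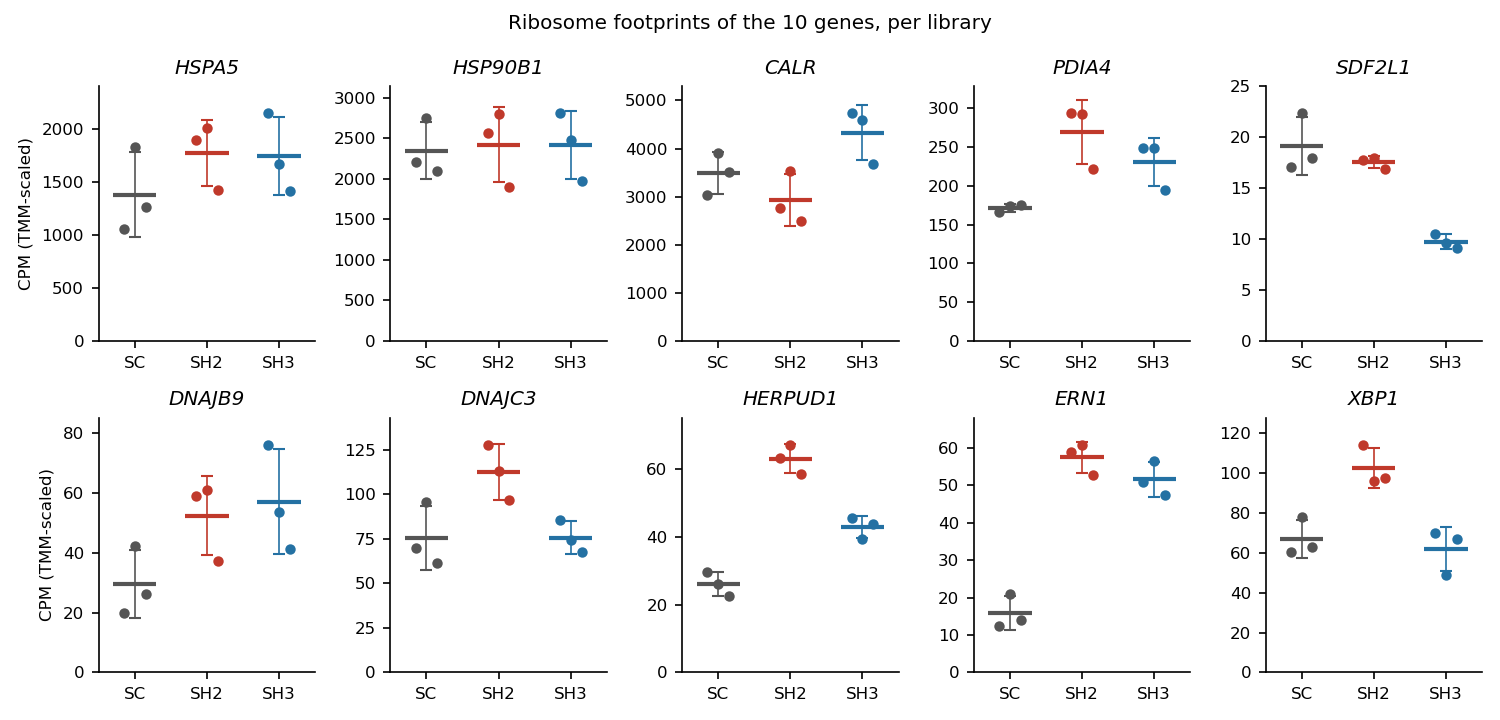
Ribosome footprint level of each gene in CPM (vertical axis, linear, starting at 0, own scale per panel) by treatment. Points are the 3 libraries of each treatment and the lines the group mean with its SD. HERPUD1 and ERN1 hairpin libraries lie above SC, HSP90B1 groups overlap, and SDF2L1 is lowest in SH3, at 9.11 to 10.5 CPM.

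In footprints, 6 of the 10 genes (PDIA4, DNAJB9, DNAJC3, HERPUD1, ERN1 and XBP1) were called higher and 0 lower with SH2, where 44.2% of 10345 genes tested were called, 21.0% higher and 23.2% lower. With SH3, 4 were called higher (PDIA4, DNAJB9, HERPUD1 and ERN1) and 1 lower (SDF2L1), where 35.9% of all genes were called, 16.9% higher and 19.0% lower. The median log2 difference of the 10 genes was 0.61 with SH2 and 0.33 with SH3, beside -0.0042 and -0.014 over all genes. Regardless of sign, the median size over all genes was 0.461 with SH2 and 0.407 with SH3. The 3 lumenal chaperone genes HSPA5, HSP90B1 and CALR, called higher in RNA with both hairpins, were called in footprints with neither. For HSPA5 the folds were near each other in the 2 measures (1.42 and 1.39 in RNA, 1.29 and 1.26 in footprints), and the lost call does not show a difference between them.

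**Figure D3:**
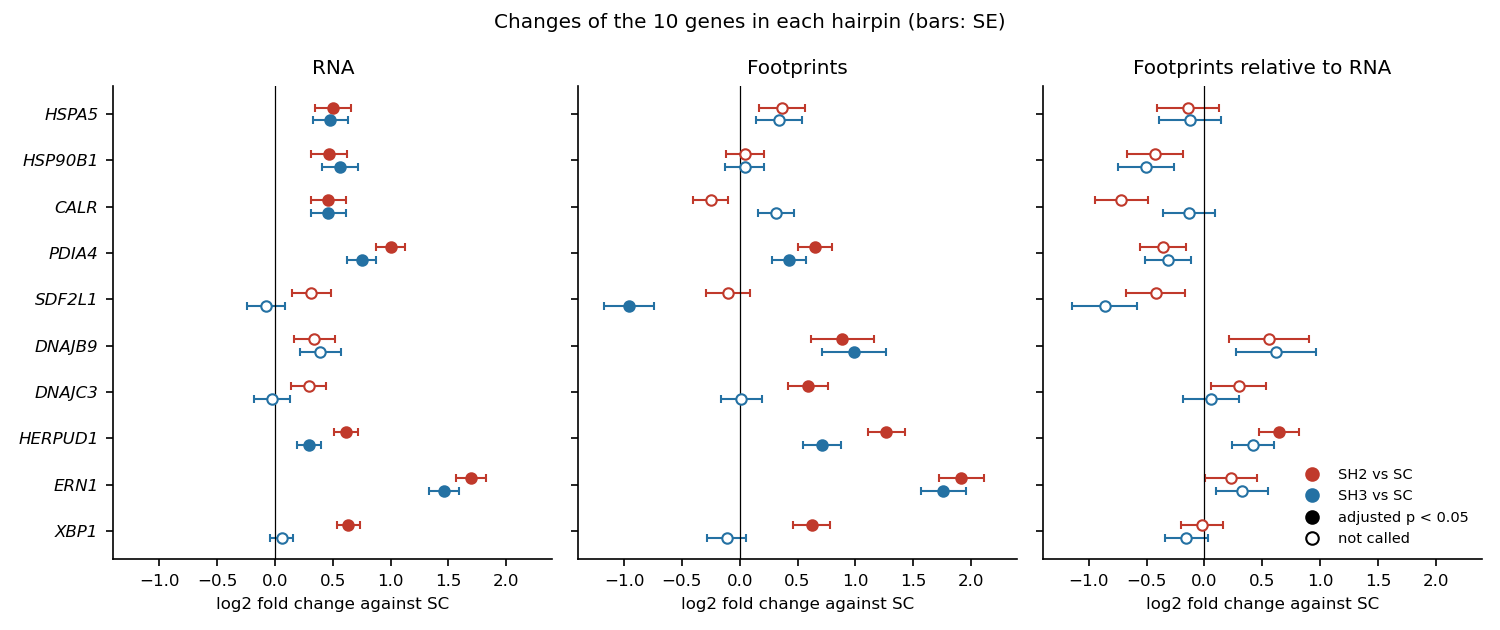
Log2 difference from SC (horizontal axis) of each gene, in panels for RNA, footprints and footprints relative to RNA, with SH2 in red and SH3 in blue. Points are edgeR estimates, filled where called, and bars 1 SE to each side. ERN1 lies farthest to the right in RNA and footprints, and SDF2L1 with SH3 lies to the left in footprints at -0.96.

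Translational efficiency, the footprint change beyond the RNA change, was tested as an interaction over all 18 libraries and 12531 genes. With SH2, 1 of the 10 genes was called higher and 0 lower, where 3.90% of all genes were called, 1.44% higher and 2.46% lower. With SH3 0 of 10 were called by edgeR, or by any alternative run, where 0.686% of all genes were called, and at an unadjusted p under 0.05 the counts over all genes were 2248 with SH2 and 1574 with SH3. The gene called was HERPUD1 (1.56-fold, log2 0.64 ± 0.18 SE, edgeR adjusted p 0.0419), with a ratio of mean footprint CPM to mean RNA CPM of 0.698 in SC, 1.10 in SH2 and 0.935 in SH3. Its call was lost in 8 of 12 alternatives, among them leaving out SC replicate 2, SC replicate 3 or any SH2 replicate (log2 0.59 to 0.70, edgeR adjusted p 0.0755 to 0.141).

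The log2 interactions of 6 of the 10 genes (HSPA5, HSP90B1, CALR, PDIA4, SDF2L1 and XBP1) were below 0 with both hairpins, and none of them was called. For HSPA5 they were -0.14 ± 0.27 SE with SH2 and -0.13 ± 0.27 SE with SH3 (edgeR adjusted p 0.841 and 0.900). For CALR the ratio was 3.55 in SC, 2.16 in SH2 and 3.19 in SH3, and the SH2 interaction was not called (0.607-fold, log2 -0.72 ± 0.23 SE, edgeR adjusted p 0.0805). With the replicate block it was called lower (log2 -0.75, edgeR adjusted p 0.00839), as it was with DESeq2 (adjusted p 0.0429), with no filter on low counts (edgeR adjusted p 0.0229), and without SC replicate 1 or SH2 replicate 2 (edgeR adjusted p 0.0189 and 0.0451). HSP90B1 had ratios of 4.07, 3.04 and 2.84 in SC, SH2 and SH3, with log2 interactions of -0.43 and -0.51 (edgeR adjusted p 0.375 and 0.391). SDF2L1 had ratios of 0.744, 0.548 and 0.400, with log2 interactions of -0.42 and -0.86 (edgeR adjusted p 0.413 and 0.172). DNAJB9 had interactions above 0 (0.56 ± 0.34 SE with SH2 and 0.62 ± 0.35 SE with SH3), not called in edgeR (adjusted p 0.424 and 0.497). For ERN1, the gene with the largest RNA change, the interactions were 0.23 ± 0.22 SE with SH2 and 0.32 ± 0.23 SE with SH3, neither called in edgeR (adjusted p 0.639 and 0.608).

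The hairpins were also compared directly, which asks where they differ from each other. In RNA, 2 of the 10 genes were called, both higher in SH2, where 39.3% of all genes were called (18.9% higher in SH2, 20.4% lower). These were XBP1 (1.49-fold, log2 0.58 ± 0.10 SE, edgeR adjusted p 0.000593), which stood under each alternative run, and HERPUD1 (1.24-fold, log2 0.32 ± 0.10 SE, edgeR adjusted p 0.0252), which was lost without SH2 replicate 1, SH3 replicate 2 or SH3 replicate 3 (log2 0.26 to 0.30, edgeR adjusted p 0.0660 to 0.0975). DNAJC3 RNA, not called between hairpins, was called without SH2 replicate 3 (log2 0.48, edgeR adjusted p 0.0264), and SDF2L1 RNA without SH2 replicate 2 (log2 0.56, edgeR adjusted p 0.0212), with low counts kept (edgeR adjusted p 0.0498) or with only the groups compared in the fit (edgeR adjusted p 0.0486). In footprints 5 were called, 4 higher and 1 lower in SH2, where 23.8% of all genes were called (12.1% higher, 11.6% lower). XBP1 (1.66-fold, log2 0.73 ± 0.17 SE, edgeR adjusted p 0.00475) and SDF2L1 (1.81-fold, log2 0.86 ± 0.22 SE, edgeR adjusted p 0.00968) stood under each alternative run. HERPUD1 (1.47-fold, log2 0.56 ± 0.16 SE, edgeR adjusted p 0.0187) was lost without SH2 replicate 2, SH3 replicate 2 or SH3 replicate 3 (log2 0.50 to 0.57, edgeR adjusted p 0.0513 to 0.0922). DNAJC3 (1.49-fold, log2 0.58 ± 0.18 SE, edgeR adjusted p 0.0259) was lost without SH2 replicate 1, SH2 replicate 2, SH3 replicate 2 or SH3 replicate 3 (log2 0.48 to 0.58, edgeR adjusted p 0.0657 to 0.108). CALR was lower in SH2 (0.677-fold, log2 -0.56 ± 0.15 SE, edgeR adjusted p 0.0141), a call lost without SH2 replicate 1, SH2 replicate 3, SH3 replicate 1 or SH3 replicate 2 (log2 -0.52 to -0.45, edgeR adjusted p 0.0558 to 0.0841). In translational efficiency 0 of the 10 were called between the hairpins by edgeR, where 0.0160% of all genes were called and 1471 had an unadjusted p under 0.05. ERN1, HSPA5 and HSP90B1 were not called between the hairpins in any measure, which does not show that they are equal.

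**Figure D4:**
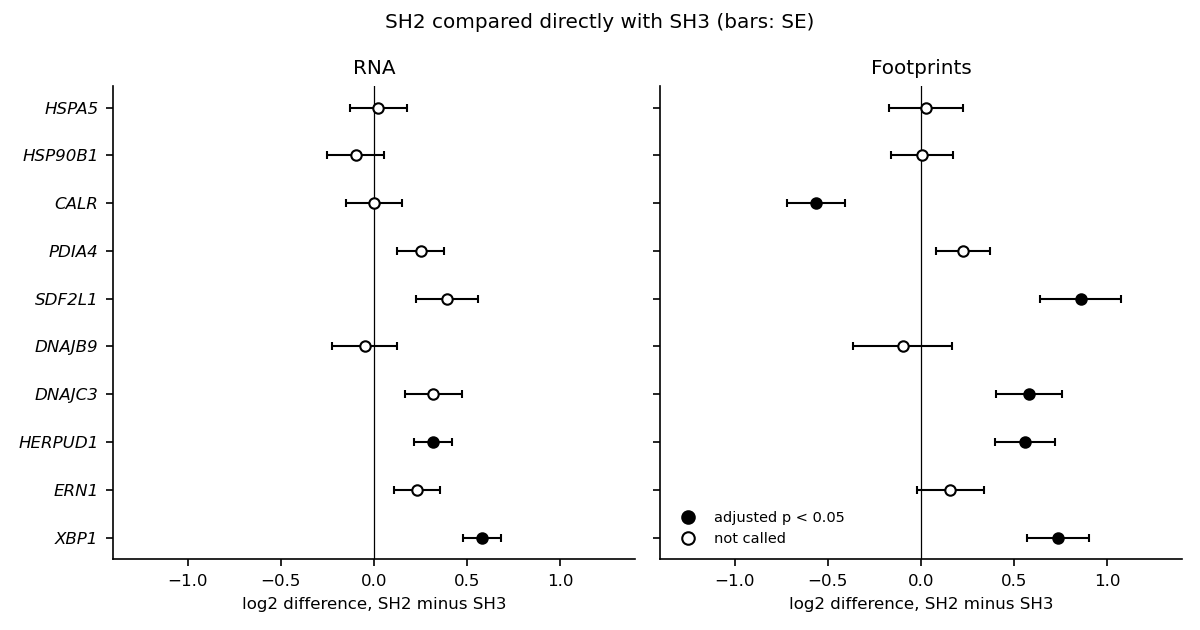
Log2 difference of SH2 minus SH3 (horizontal axis) for each gene, with panels for RNA and footprints. Points are edgeR estimates, filled where called, and bars 1 SE to each side. XBP1 lies at 0.58 in RNA and 0.73 in footprints, and CALR footprints lie at -0.56.

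Other genes of ER protein handling were counted in lists. Over all genes tested in RNA, 31.1% were called higher and 30.4% lower with SH2, and 27.8% and 25.2% with SH3. Over all genes tested in footprints, 21.0% were called higher and 23.2% lower with SH2, and 16.9% and 19.0% with SH3. The counts of every list below stand beside these shares. Of 6 further sensors and activators, 2 were called higher and 1 lower in RNA with SH2, and 4 higher and 0 lower with SH3, with medians of 0.084 and 0.36. ATF6B, a paralogue of ATF6, had log2 differences of 1.23 in SH2 and 0.81 in SH3, and EIF2AK3, which encodes PERK, of 0.98 in SH2 and 0.46 in SH3, all called in edgeR. In footprints, ATF6 itself was called higher (0.36 in SH2 and 0.59 in SH3). Of 14 further chaperones and cochaperones, 8 were called higher and 2 lower in RNA with each hairpin, with medians of 0.53 and 0.29. Examples are DNAJC10, a J-protein with reductase activity (1.30 in SH2 and 0.68 in SH3), HYOU1, a large Hsp70-like chaperone (0.91 in SH2 and 0.52 in SH3), and CRELD2 (0.98 in SH2 and 0.54 in SH3). MANF, a secreted protein of the ER lumen, was called lower (-0.76 in SH2 and -0.31 in SH3). In footprints of this list, 7 were called higher and 3 lower with SH2, and 0 higher and 1 lower with SH3.

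The next lists cover oxidative folding, translocation and degradation. Their RNA counts stand beside 31.1% of all genes called higher and 30.4% lower with SH2, and 27.8% and 25.2% with SH3. Of 13 genes of disulfide formation, 4 were called higher and 5 lower in RNA with SH2, and 1 higher and 5 lower with SH3, with medians of -0.17 and -0.093. ERP44, which retrieves proteins to the ER, was called higher (0.57 in SH2 and 0.50 in SH3), whereas the oxidase gene ERO1B (-1.31 in SH2 and -0.50 in SH3) and the peroxiredoxin gene PRDX4 (-0.40 in SH2 and -0.44 in SH3) were called lower. The SH3 call of ERO1B lay at the threshold (edgeR adjusted p 0.04996), with 78 to 116 counts in each SH3 library. In footprints of this list, 2 were called higher and 4 lower with SH2, and 0 higher and 6 lower with SH3. Footprints called lower with both hairpins were those of TMX1 (-1.91 in SH2 and -0.39 in SH3), PRDX4 (-1.06 in SH2 and -0.86 in SH3) and PDIA6 (-0.94 in SH2 and -0.52 in SH3). Of 16 genes of translocation and signal peptide cleavage, 3 were called higher and 7 lower with SH2, and 2 higher and 7 lower with SH3, with medians of -0.12 and -0.21. SPCS3, a subunit of signal peptidase, was called lower in RNA (-1.69 in SH2 and -3.05 in SH3) and in footprints (-1.61 in SH2 and -3.25 in SH3). SSR3, of the translocon-associated complex, was also called lower in RNA (-1.44 in SH2 and -1.25 in SH3). Of 21 genes of ER-associated degradation tested, out of 22 in the list, 7 were called higher and 5 lower with SH2, and 6 higher and 4 lower with SH3, with medians of 0.15 and 0.068. The lectin gene OS9 (1.24 in SH2 and 1.03 in SH3) and SYVN1, which encodes the ligase HRD1 (1.14 in SH2 and 0.74 in SH3), were called higher. EDEM1, whose product trims mannose from misfolded glycoproteins and which is often used as a readout of XBP1, was called lower in RNA (-1.25 in SH2 and -1.32 in SH3) and in footprints (-0.997 in SH2 and -1.19 in SH3).

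The list of the PERK and ATF4 arm has 11 genes, of which 1 was not analysed here. Of the other 10, 7 were called higher and 2 lower in RNA with SH2, and 4 higher and 3 lower with SH3, with medians of 0.77 and 0.28. Over all genes, 31.1% were called higher and 30.4% lower with SH2, and 27.8% and 25.2% with SH3. SESN2 (1.41 in SH2 and 1.77 in SH3), the transcription factor gene ATF3 (1.90 in SH2 and 1.28 in SH3) and PPP1R15A, whose product GADD34 directs dephosphorylation of eIF2α (1.27 in SH2 and 0.69 in SH3), were called higher. ATF4 itself (-0.34 in SH2 and -0.36 in SH3) and NUPR1 (-1.21 in SH2 and -1.04 in SH3) were called lower. In footprints, DDIT3, which encodes CHOP, was called higher (1.201 in SH2 and 1.81 in SH3), as was PPP1R15A (1.31 in SH2 and 1.51 in SH3). NUPR1 footprints were called lower (-2.32 in SH2 and -1.13 in SH3). These calls rest on few counts for NUPR1 (4 to 17 in each SH2 library, 11 to 17 in each SH3 library) and DDIT3 (16 to 35 in each SC library). ATF4 footprints stood at 90.9 ± 14.9 CPM in SC, 63.3 ± 7.78 with SH2 and 77.0 ± 7.38 with SH3 (SD, 3 libraries each). In all, 4 of the 10 were called higher and 2 lower in footprints with each hairpin. In translational efficiency, 1.44% of all genes were called higher and 2.46% lower with SH2, and 0.375% and 0.311% with SH3. Of this list, 0 were called higher and 3 lower with SH2, and 1 higher and 0 lower with SH3. The 3 lower were ATF3 (-1.53), SESN2 (-1.14) and TRIB3 (-0.72), and the 1 higher was PPP1R15B (0.78), named here after their values were seen. ATF3 footprints had 16 to 50 counts in each SC library and 19 to 53 in each SH2 library. Of 6 mRNAs reported elsewhere as cut by IRE1, 3 were called higher and 2 lower in RNA with SH2, and 2 higher and 1 lower with SH3. COL6A1 (2.54 in SH2 and 1.99 in SH3) and PDGFRB (1.25 in SH2 and 0.97 in SH3) were called higher with both hairpins. As a list from outside the ER, 13 heat shock genes of the cytosol and mitochondria had 2 called higher and 7 lower with SH2, and 0 higher and 7 lower with SH3, with medians of -0.35 and -0.38. They include HSPD1 and HSPE1, the mitochondrial chaperonins (-0.62 in SH2 and -0.55 in SH3 for HSPD1, -1.01 in SH2 and -0.93 in SH3 for HSPE1), and HSP90AA1, the inducible cytosolic Hsp90 (-0.44 in SH2 and -0.50 in SH3).

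**Figure D5:**
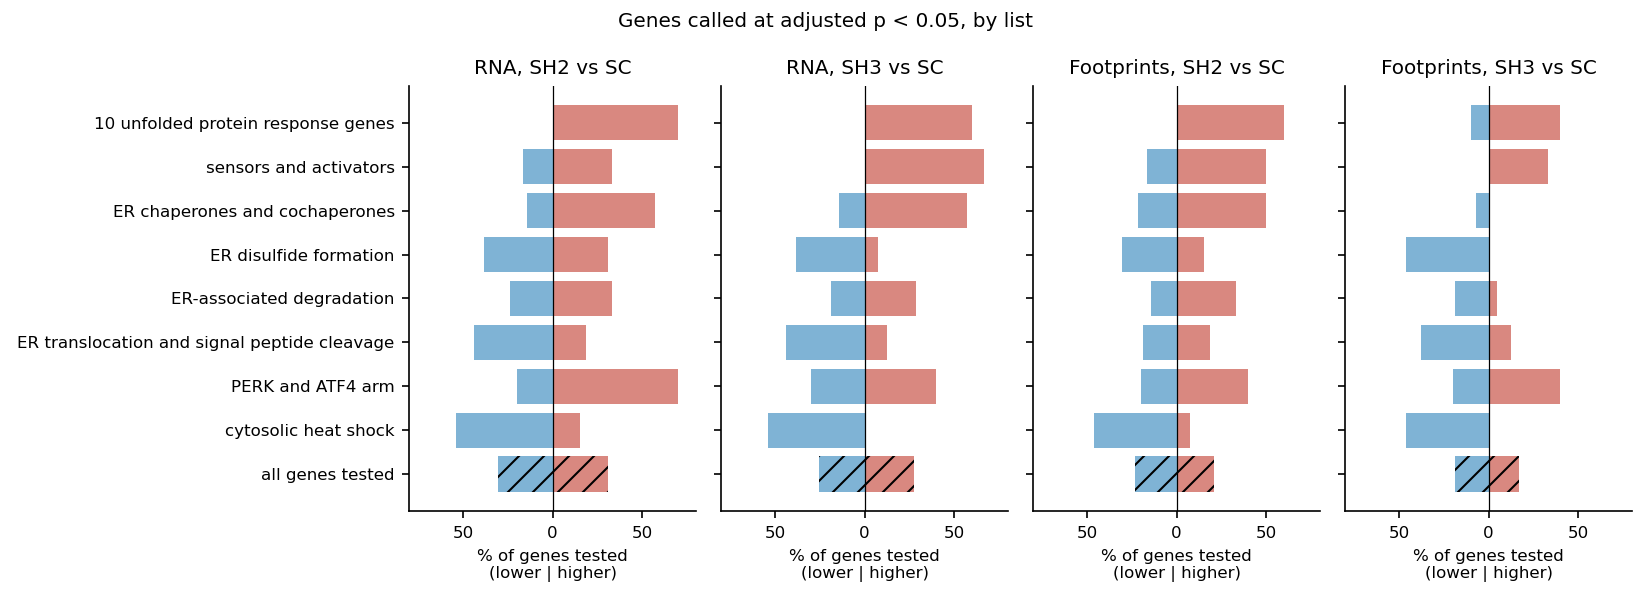
Share of the genes tested in each list that were called lower (left of 0) or higher (right of 0), in percent, for RNA and footprints with each hairpin. The hatched bars are all genes tested. Of the 10 genes, 7 and 6 were called higher in RNA, where the hatched bars reach 31.1% and 27.8%.

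The RNA profile of HSPA5 was set against those of 9182 genes with a mean of at least 10 CPM, as the root mean square difference of centred log2(CPM + 1) over the 9 RNA libraries. The nearest were ASAH1 (0.070), CALR (0.074), TAP1 (0.084), LAMB2 (0.094), HRH1 (0.095) and LAMP2 (0.097). CALR, itself among the 10 genes, ranked 2, HSP90B1 ranked 42, DNAJB9 90, HERPUD1 208, DNAJC3 818, PDIA4 1146, XBP1 2079, SDF2L1 2153 and ERN1 6825. Levels are not compared between genes, since no lengths were used.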

How the data were processed

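Cytoplasmic RNA and ribosome footprints were sequenced in 18 libraries of MDA-MB-231 cells. The count columns of the deposited table hold whole-number reads per gene, as deposited by the authors. Its normalized signal columns are DESeq2-normalized values, per the file headers, and were not tested. Its log2 fold changes and its p-values are the authors' own comparisons in the deposited table. Bowtie 1.2.2 and DESeq2 are named in the submitters' processing notes. The build, annotation, strand setting and treatment of reads that match several places are not given in the sources used here, so genes with near-identical copies are uncertain.

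Counts were tested in edgeR 4.0.16 (R 4.3.3) with filterByExpr, TMM factors and the two-sided quasi-likelihood test, with Benjamini-Hochberg adjustment over all genes tested. There was 1 fit for the 9 RNA libraries, 1 for the 9 footprint libraries and 1 for all 18 with an interaction contrast for translational efficiency. Genes were called at an adjusted p-value under 0.05. SE is the absolute log2 difference over the square root of F. The scripts were tested on simulated data. Replicates of a group differed by more than counting noise (chi-square per degree of freedom 11.5 to 58.7 in RNA and 3.55 to 18.0 in footprints). The highest were SC RNA replicate 1 against replicates 2 and 3 (58.7 and 51.2), with 12.0 between replicates 2 and 3. Mitochondrially encoded mRNAs took 10.7% of counts in SC RNA replicate 1, and 6.38% and 6.31% in replicates 2 and 3. The biological coefficient of variation was 11.6% in RNA and 15.1% in footprints. The total of each footprint library limits the precision of genes with few counts.

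The 10 genes and the lists were chosen with earlier results of these data known, and the members' counts stand beside those over all genes. All 10 are described. From each list, up to 3 genes each way are named among those called in the same direction with both hairpins, ranked by the mean log2 difference, and the 5 genes outside the 10 that are nearest to HSPA5. Replicate numbers come from the labels' titles. For SC and SH2, deviations from the group means correlated in every same-numbered pair (0.34 to 0.37 in RNA, 0.25 to 0.30 in footprints), so the numbers were taken to pair these groups. Alternatives were DESeq2 1.42.0, RLE in place of TMM factors, no filter, a replicate block, only the groups compared, and leaving out each replicate. For translational efficiency, a block by lysate was also run. Promoters came from RefSeq (GRCh38.p14).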

Additional observations from a re-analysis of the deposited data

Results flagged for a closer look

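In 7 results the hairpins differed from each other beyond the threshold in the direct edgeR test of SH2 against SH3. In RNA, XBP1 was higher in SH2 by 0.58 and HERPUD1 by 0.32 on the log2 scale. In footprints, SDF2L1 was higher in SH2 by 0.86, XBP1 by 0.73, DNAJC3 by 0.58 and HERPUD1 by 0.56. CALR footprints differed the other way, at -0.56 in SH2 relative to SH3. XBP1 was called higher than SC with SH2 and not with SH3 in both measures, and SDF2L1 footprints were called lower than SC with SH3 and not with SH2. The labels do not say how the hairpins differ beyond their names, and footprint depth was lower in SH3, with a part in these differences that was not tested.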

How the results depend on the processing

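Of 90 results for single genes (10 genes in 9 comparisons), 65 kept their side of the threshold under every alternative run (11 for RNA or footprints, 12 for translational efficiency). Of these 65, 40 also kept their sign and 25, none of them called, took the other sign under at least 1 alternative. Of the 32 called results, 0 changed sign. In the fit for translational efficiency, leaving out a replicate removed both the RNA and the footprint library of that number. Leaving out 1 replicate moved the number of the 10 genes called from 7 to between 4 and 10 (RNA, SH2 against SC, with 53.6% to 59.5% of all genes called), from 6 to between 3 and 7 (RNA, SH3, with 44.0% to 49.9%), from 6 to between 4 and 7 (footprints, SH2, with 35.8% to 45.7%), from 5 to between 3 and 6 (footprints, SH3, with 25.2% to 36.0%), from 2 to between 1 and 3 (RNA, SH2 against SH3, with 29.0% to 39.5%), from 5 to between 2 and 4 (footprints, SH2 against SH3, with 14.7% to 20.0%) and from 1 to between 0 and 2 (translational efficiency, SH2, with 0.870% to 4.39%). The lowest of these came without SC replicate 3 for RNA with SH2 (4), without SC replicate 3, SH3 replicate 1 or SH3 replicate 2 for RNA with SH3 (3), without SC replicate 3 for footprints with SH2 (4), without SH3 replicate 1 for footprints with SH3 (3), without SH2 replicate 1, SH3 replicate 2 or SH3 replicate 3 for RNA between hairpins (1), and without SH3 replicate 2 for footprints between hairpins (2). Against SC, the highest in RNA came without SC replicate 1, with SH2 (10) and with SH3 (7). The highest in footprints came without SC replicate 2, with SH2 (7) and with SH3 (6). For translational efficiency with SH2, DESeq2 called 2 (8.65% of all genes) and the fit to only the groups compared called 0 (1.48%).

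With the replicate number as a block, 9 of the 10 genes were called in RNA with SH2 against SC (65.7% of all genes), 5 in RNA between SH2 and SH3 (45.5%) and 2 in translational efficiency with SH2 (6.03%). With a block by lysate that joins RNA and footprints of the same number, the last was 0 (1.52%). The numbers were not taken to pair SH3 with the other groups, since not every pair correlated over 0.1. The range over all 9 pairs was -0.13 to 0.47 in RNA and -0.12 to 0.32 in footprints. Nor were they taken to pair RNA with footprints (-0.50 to 0.51). This does not show that pairing is absent. With the block, DNAJB9 RNA was called higher with SH3 against SC (log2 0.39, edgeR adjusted p 0.0213). Between hairpins, the block added RNA calls of DNAJC3, PDIA4 and SDF2L1, all higher in SH2 (edgeR adjusted p 0.0162, 0.0210 and 0.0394). For SC and SH2, the block changed no call beyond those of DNAJB9, DNAJC3 and CALR given in the results.

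Over all genes, the count called in translational efficiency moved from 489 to between 110 and 930 with SH2, from 86 to between 10 and 383 with SH3, and from 2 to between 0 and 254 between hairpins. In footprints between hairpins it moved from 2459 to between 1541 and 3019. The cause of these changes was not tested.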

Other observations

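Outside the 10 genes, 38 genes hold ERSE or ERSE-II in a promoter window, and 24 of them were tested in RNA. With SH2, 8 were called higher and 7 lower (median log2 difference 0.12), where 31.1% of all genes were called higher and 30.4% lower. With SH3, 7 were called higher and 6 lower (median -0.0057), where the shares over all genes were 27.8% and 25.2%. In footprints, where 23 were tested, 2 were called higher and 6 lower with SH2, and 2 higher and 4 lower with SH3, beside 21.0% and 23.2%, and 16.9% and 19.0%, over all genes. The genes named here were chosen after their values were seen. FICD, whose product modifies BiP by AMPylation, was called higher in RNA (log2 1.44 with SH2 and 0.44 with SH3). So were RNAs of the lectin chaperone gene CANX (0.53 and 0.74) and NUCB1, a calcium-binding protein gene (0.67 and 0.48). In footprints, NUCB1 was called higher with both hairpins, FICD with SH2 alone and CANX with neither. Among those called lower in RNA were EIF2A (-1.48 and -0.39) and SHCBP1 (-1.39 and -1.59). Footprints of SHCBP1 were called lower with both hairpins, and those of EIF2A with SH2 alone. PDIA6, of the disulfide formation list, was called lower in RNA with SH2 (-0.89) and not called with SH3 (-0.17). Its footprints were called lower with both hairpins (-0.94 and -0.52). HYOU1, CRELD2 and ERO1B, described in the results, also hold such an element.

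In the authors' deposited table, 7 of the 10 genes were higher and 0 lower in RNA with SH2, and 6 higher and 0 lower with SH3, at an adjusted p-value under 0.05. Of all genes with an adjusted p-value in the authors' deposited table, 54.7% pass it with SH2 (27.0% higher) and 49.4% with SH3 (24.4% higher). For footprints the authors' deposited table gives 6 higher and 0 lower with SH2, and 4 higher and 1 lower with SH3, where 34.6% and 28.8% of all genes pass. Its further measure, named RD, holds the same log2 fold change and the same p-value for SH2 and SH3 in all 17017 genes, so it was not used here.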
